A study of Homo sapiens with 20 samples.

Results

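The RNA reference that the reads were counted against held many entries with a sequence identifier and a length but no gene name, symbol or RNA class. The entries described here are those of 250 to 350 nucleotides that drew at least 100 estimated reads in all, summed over the 20 libraries of the study. They numbered 696. They came from 36057 unnamed entries of that length, of which 13804 drew any read, and from 921552 entries in the whole reference, of which 669597 were unnamed. Summed reads and length thus chose the members, and both are given as a description only. At the threshold, URS000233D5BC (343 nt) was inside with 100 estimated reads and URS0000EAE097 (267 nt) was outside with 99.9. The identifiers begin with URS, the form used by RNAcentral, a database of non-coding RNA sequences. The sources used here do not pair them with names or sequences, so each is called by its identifier and its length, and none is given the name of an RNA.

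The libraries came from HEK293, a human embryonic kidney cell line. Total RNA was sequenced from exosomes, small vesicles that cells shed, and from the cores of cytoplasmic RNA granules, which are membrane-free bodies of RNA and protein. The 4 groups were control exosomes, HD exosomes, control granules and HD granules, with 5 libraries each that the study calls biological replicates, and HD stands for Huntington's disease. The treatment label is either control or HD-induced. The labels do not say how HD was induced, so nothing further can be said of the model. In these bulk preparations, more vesicles or granules and more of an RNA in each of them cannot be told apart.

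RNAs of 250 to 350 nucleotides include several well-known structured non-coding RNAs made by RNA polymerase III. 7SL RNA is the scaffold of the signal recognition particle, which binds ribosomes that are making secreted or membrane proteins and brings them to the endoplasmic reticulum, and it is often found in extracellular vesicles. 7SK RNA is a mainly nuclear RNA that holds the kinase P-TEFb (CDK9 with a cyclin T) inactive together with HEXIM, LARP7 and MEPCE proteins. RMRP and RPPH1 are the RNA subunits of RNase MRP and RNase P, which process ribosomal and transfer RNA precursors.

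The reference sequence of 7SK is shown because unnamed entries described below are set against this named RNA. It is from GENCODE release 29 on build GRCh38 and has the same transcript version and length as the entry counted in the files. RN7SK (chr6:52995621-52995948, plus strand) is a single-exon gene for a non-coding RNA, 328 nt long with 58.2% GC. Its first 300 bases (chr6:52995621-52995920) are shown, with no capitals because no base is singled out.
RN7SK bases 1 to 300: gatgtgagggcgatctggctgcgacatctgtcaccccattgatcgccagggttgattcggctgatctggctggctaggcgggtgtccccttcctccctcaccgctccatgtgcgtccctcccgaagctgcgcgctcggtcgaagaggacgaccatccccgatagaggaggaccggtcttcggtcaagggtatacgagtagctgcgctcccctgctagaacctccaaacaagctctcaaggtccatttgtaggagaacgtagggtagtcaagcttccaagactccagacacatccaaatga

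The depth of the libraries sets what can be compared. Control exosomes held 8.99 to 15.6 M estimated reads (M, 1000000), control granules 17.4 to 38.4 M and HD granules 26.96 to 35.8 M. HD exosomes were uneven: libraries 1, 2, 3 and 5 held 12.1, 14.4, 1.98 and 4.25 M, and library 4 held 1074 reads, of which 10 members drew at least 1. HD exosome 2 had 86.6% of its reads on unnamed entries, and HD granule 3 stood apart from its group in the members described below. Several results that rest on HD exosomes 2 and 4 and HD granule 3 are therefore given with and without them. Correlations of log levels between replicates ran from 0.777 to 0.835 in control exosomes, 0.774 to 0.905 in control granules, 0.371 to 0.919 in HD granules and -0.0806 to 0.631 in HD exosomes. All 5 of the HEK293 markers LIN28B, IGF2BP1, VIM, KRT8 and KRT18 reached 1 TPM (abundance per length, scaled to a library total of 1000000) in a library of every group. Their summed level had a median of 246 TPM (210 to 276) in control exosomes and 304 (28.4 to 338) in HD exosomes. In control granules it was 95.5 (62.0 to 119) and in HD granules 84.8 (68.2 to 535). Of 4 red blood cell markers, the summed level had a median of 87.8 TPM (30.4 to 146) in control exosomes, 53.9 (0 to 1743) in HD exosomes, 7.49 (5.26 to 23.4) in control granules and 16.1 (11.3 to 43.1) in HD granules. Of 4 keratinocyte markers the medians were 3.68 (0.844 to 10.5), 31.6 (2.14 to 215), 0.208 (0.107 to 0.458) and 0.558 (0.383 to 0.885) TPM in the same order, with KRT14 at 0 in every HD exosome library. Leukocyte markers (3) had medians of 0.645, 0.901, 0.407 and 0.391 TPM in the same order. Liver and serum markers (3) had 0.231, 0.0725, 0.0654 and 0.0826 TPM. All lists but the liver and serum one had higher medians in exosomes than in granules. The part of these markers in the results below was not tested.

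Members took a larger share of the reads in control exosomes than in any other group. Their share of all estimated reads was 29.2%, 22.6%, 26.6%, 24.3% and 21.6% in control exosomes 1 to 5. HD exosomes 1 to 5 gave 20.8%, 9.504%, 13.6%, 16.8% and 9.35%. All 5 control exosome libraries lay above all 5 HD exosome libraries. In granules the share was 11.5%, 13.5%, 10.4%, 9.98% and 7.70% for control cells and 11.996%, 11.965%, 3.54%, 10.2% and 9.83% for HD cells, and these groups overlapped. The group values were 24.9% ± 3.11 (SD, n = 5), 14.02% ± 4.91 (SD, n = 5), 10.6% ± 2.12 (SD, n = 5) and 9.52% ± 3.48 (SD, n = 5). Without HD exosome 4 the HD exosome value was 13.3% ± 5.38 (SD, n = 4), and without HD exosomes 2 and 4 it was 14.6% ± 5.81 (SD, n = 3). Without HD granule 3 the HD granule value was 11.01% ± 1.14 (SD, n = 4). No test was made of these shares, because they sum over members chosen with results known.

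**Figure D1:**
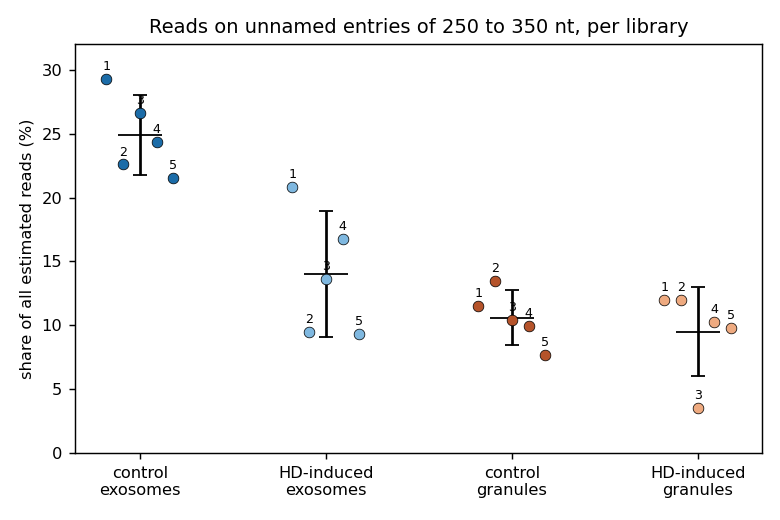
Share of all estimated reads (vertical axis, percent) that lay on the 696 unnamed entries of 250 to 350 nt, with 1 point per library, numbered by replicate, and the group mean with 1 SD as a bar (n = 5 each). The 5 control exosome libraries lie between 21.6% and 29.2%, above every library of the other groups, and HD granule 3 lies lowest at 3.54%.

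The neighbouring length windows held far fewer reads, a difference that was not tested. Unnamed entries of 150 to under 250 nt with at least 100 reads, 310 in number, took 0.122% ± 0.110 (SD, n = 5) of control exosome reads and 1.69% ± 0.493 (SD, n = 5) of control granule reads. Those of over 350 to 450 nt, 872 in number, took 0.513% ± 0.0707 (SD, n = 5) and 0.661% ± 0.116 (SD, n = 5). Within the range, members of 300 to 309 nt took 13.95% ± 1.64 (SD, n = 5) of control exosome reads and those of 290 to 299 nt took 9.08% ± 0.803 (SD, n = 5). In control granules the 290 to 299 nt members led with 6.35% ± 0.953 (SD, n = 5), followed by those of 260 to 269 nt with 1.92% ± 0.476 (SD, n = 5).

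Few members carried most of these reads. The first took 34.5% of all member reads summed over the 20 libraries, the first 5 took 78.1%, the first 10 took 91.3% and the first 50 took 99.0%. Only 8 members had at least 1000000 summed reads, while 545 had fewer than 1000. A total of 47 members had no read in any exosome library and 13 had none in any granule library. Only 4 had estimated reads above 0 in all 20 libraries, and 1 of these had only 0.002 in HD exosome 4. A total of 50, those 4 included, had estimated reads above 0 in every library when HD exosome 4 was left aside. In 11 members at least 90% of the reads came from 1 library.

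Members also came in pairs that could not be told apart by their reads. In 71 pairs, holding 142 members, both entries had the same length and estimated reads within 1% of each other in every library compared. The most read pair was URS0001BEE16D and URS00008B8C2B, both of 302 nt, whose reads differed by at most 0.0113% in any library. The entries of such a pair are not independent of each other, and both enter the counts of calls below.

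The single entry with the most reads was a granule entry. URS00019DAA22 (298 nt) took 6.05%, 7.05%, 6.38%, 5.81% and 4.92% of all reads in control granules 1 to 5 and 7.47%, 6.38%, 1.40%, 5.72% and 6.45% in HD granules 1 to 5. In control exosomes it took 0.0143%, 0.0485%, 0.488%, 0.0240% and 0.0653%, and in HD exosomes 0.0512%, 0.0917%, 0.649%, 1.02% and 0.0304%. Every granule library lay above every exosome library, and HD granule 3 was the lowest of the granule libraries. The log2 fold change of granules over exosomes was 5.10 (SE 1.05, edgeR adjusted p = 0.00397) in control cells and 4.85 (SE 1.31, adjusted p = 0.0211) in HD cells. The HD call did not pass without HD exosome 5 (adjusted p = 0.0552), without any 1 of HD granules 1, 2, 4 or 5 (adjusted p from 0.121 to 0.129) or with the replicate number as a block (adjusted p = 0.099).

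Another granule entry was nearly absent from exosomes. URS0001A04CEF (260 nt) took 1.18%, 1.27%, 1.84%, 1.56% and 1.45% of control granule reads and 1.55%, 1.59%, 0.0148%, 1.65% and 1.45% of HD granule reads. It took 0.000955% to 0.00195% of control exosome reads and 0% to 0.00767% of HD exosome reads. HD granule 3 held far less of it than the other 9 granule libraries, and still more than any exosome library. Its log2 fold change of granules over exosomes was 9.76 (SE 0.368, edgeR adjusted p = 5.71e-07) in control cells and 9.21 (SE 1.48, adjusted p = 0.00445) in HD cells.

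The leading entries of control exosomes were URS000037B6F9 and the 302-nt pair. URS000037B6F9 (290 nt) took 9.08%, 8.21%, 9.82%, 9.17% and 8.40% of control exosome reads. In HD exosomes it took 8.22% in library 1, 0.893% and 0.957% in libraries 2 and 3, and none in libraries 4 and 5. The depth of library 4 allows a share of up to 0.279% behind that 0 (3 counts of its total), and that of library 5 up to 7.07e-05%, for counting error only. Granule libraries held 0.0244% to 0.315% of it. HD exosome 1 was therefore within the range of the control exosomes, and the other HD exosome libraries were far below it. In control cells it was lower in granules by a log2 fold change of -6.05 (SE 0.748, edgeR adjusted p = 0.000237). In HD cells the log2 fold change was -4.61 (SE 2.13) and did not pass (adjusted p = 0.149).

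Each entry of the 302-nt pair took 7.90%, 6.36%, 7.37%, 6.83% and 5.82% of control exosome reads. HD exosomes held 5.54%, 1.23%, 3.00%, 4.44% and 1.88%, all below the control exosome libraries. Granules held 0.0123% to 0.0980% of each in the 10 libraries. The log2 fold change of granules over exosomes was -7.14 (SE 0.683, edgeR adjusted p = 5.37e-05) for each in control cells and -5.50 (SE 1.22, adjusted p = 0.0073) in HD cells. The HD call did not pass without any 1 of HD granules 1, 2, 4 or 5 (adjusted p from 0.0589 to 0.0674) or with the replicate block (adjusted p = 0.0856). Between HD and control exosomes the log2 fold change was -1.17 (SE 1.37) and did not pass.

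**Figure D2:**
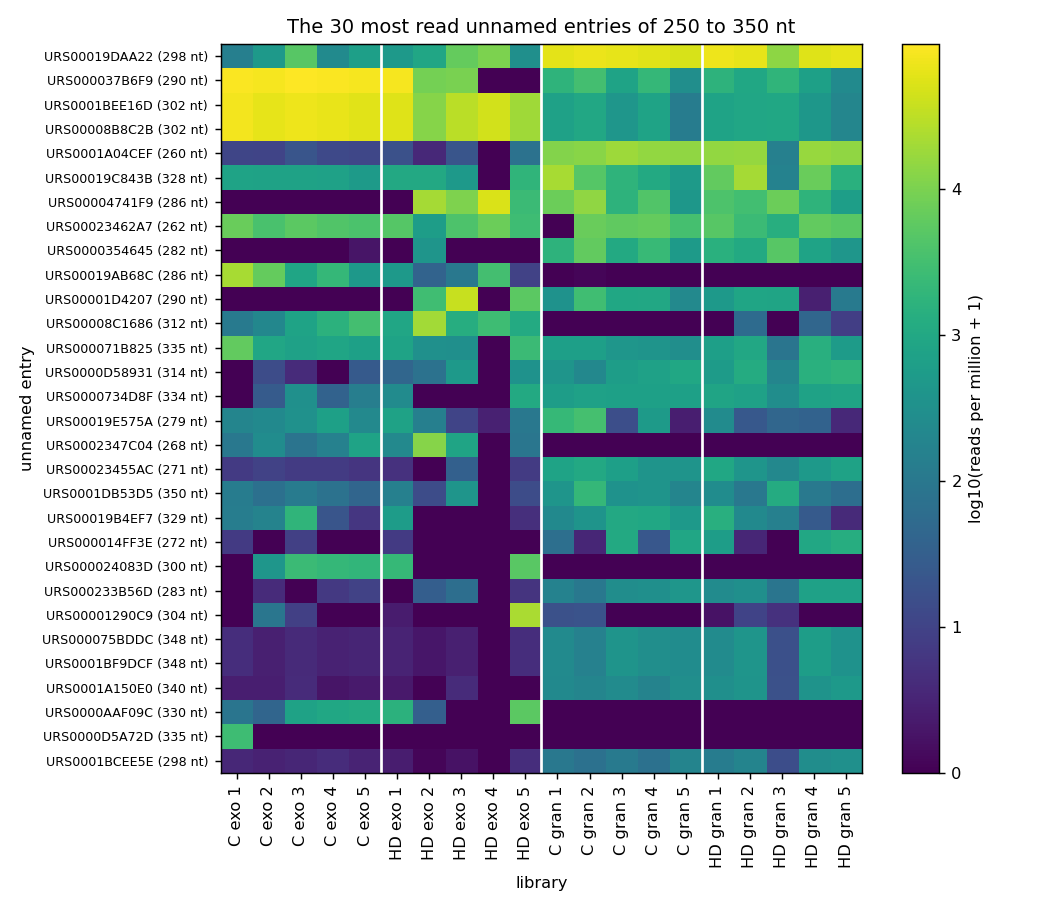
The 30 most read members (rows, with length) in the 20 libraries (columns; C is control, HD is HD-induced, exo is exosomes, gran is granules), coloured by log10 of RPM plus 1 (RPM, estimated reads scaled to a library total of 1000000). URS000037B6F9 and the 302-nt pair are bright in the 5 control exosome libraries and HD exo 1, URS00019DAA22 and URS0001A04CEF are bright in granules, and HD gran 3 is darker than its group in URS0001A04CEF.

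An effective length is also given for each entry. It is a length that the counting tool weights for sequence and fragment biases, and it can exceed the entry's own length. Where no bias correction applied, it depended on length alone. Where one applied, it depended on the sequence of the entry, so the ratio of the effective length to the length-only value traced a profile over the 20 libraries. RN7SL1 (299 nt) had an effective length of 1487 in control exosome 1, 498 to 848 in the other control exosomes and 170 to 194 in control granules. The entry URS000037B6F9 (290 nt) had 1377, 447 to 766 and 165 to 188 in the same libraries. RN7SK had 207 to 221 in control exosomes and 254 to 374 in control granules, a different course. A likeness of profile is a description of the files, not an identification of the RNA.

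**Figure D3:**
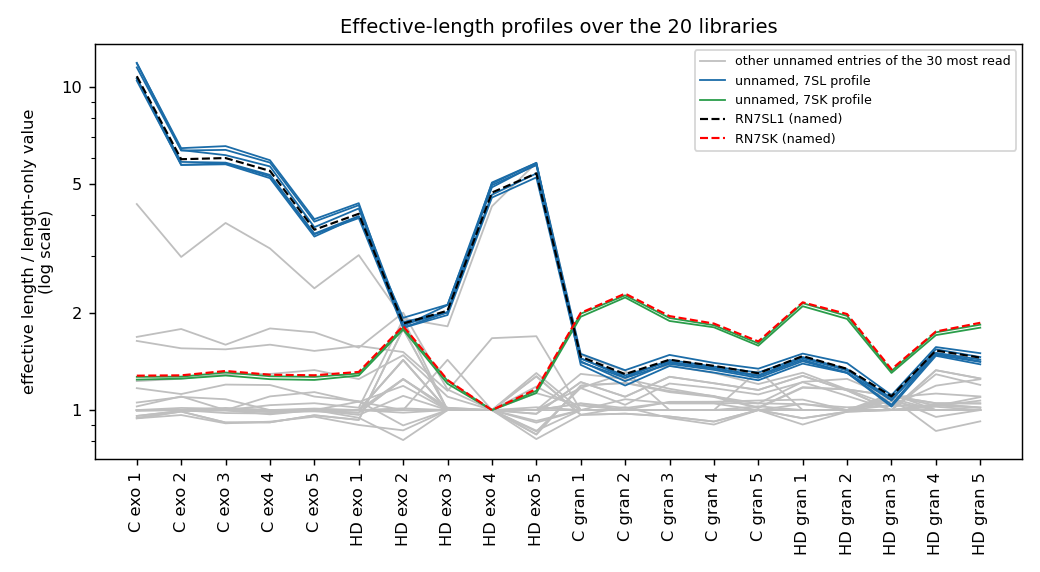
Ratio of effective length to the length-only value (vertical axis, log scale) in each library (horizontal axis, labels as above) for the 30 most read members, with RN7SL1 and RN7SK as dashed lines. Members with the 7SL profile follow RN7SL1, above 10 in C exo 1 and below 2 in every granule library, and members with the 7SK profile follow RN7SK.

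Of the members, 19 had a profile within a root mean square difference of 0.06 (natural log of the ratio) from RN7SL1 or RN7SL2 in at least 17 libraries, and 7 had one as near to RN7SK. Among all 66192 entries that could be compared, the only named ones as near to RN7SL1 were RN7SL1, RN7SL2 and RN7SL3. Another 1 unnamed entry, not among the members, was as near. For RN7SK, the named ones were RN7SK and an entry named 7SK. The profile of RPPH1 was not distinctive, since 91 named transcripts of other genes were as near to it, and RMRP was bias corrected in 1 library only, so neither was used. Members of exactly the same length as a named RNA were no guide: 11 had the 299 nt of RN7SL1, 5 the 300 nt of RN7SL2, 3 the 328 nt of RN7SK, 2 the 264 nt of RMRP and 7 the 333 nt of RPPH1. URS00019C843B, which had the length of RN7SK, was bias corrected in 11 libraries only, as were URS00019DAA22 and both entries of the 302-nt pair, and so they had no profile to compare.

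The 19 members with the 7SL profile together with the named 7SL entries took 9.32%, 8.41%, 10.1%, 9.39% and 8.65% of control exosome reads. In HD exosomes they took 8.46%, 3.62%, 5.85%, 5.17% and 3.96%. Control granules held 1.15%, 2.76%, 0.473%, 1.01% and 0.154%, and HD granules 0.776%, 0.619%, 1.52%, 0.330% and 0.144%. Every exosome library lay above every granule library. The group values were 9.17% ± 0.665, 5.41% ± 1.93, 1.11% ± 1.01 and 0.678% ± 0.531 (SD, n = 5 each). Without HD exosomes 2 and 4 the HD exosome value was 6.09% ± 2.26 (SD, n = 3). Without HD granule 3 the HD granule value was 0.467% ± 0.284 (SD, n = 4). As sums over members chosen from the data, these carry no test.

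Which entry of this profile held the reads differed between libraries. URS000037B6F9 held 97.2% to 97.7% of the profile's member reads in control exosomes and 97.1% in HD exosome 1. URS00004741F9 (286 nt) led in HD exosomes 2 and 4, URS00001D4207 (290 nt) in HD exosome 3 and URS00001290C9 (304 nt) in HD exosome 5. In granules URS00004741F9 led in 9 of 10 libraries, and URS0000354645 (282 nt) led in control granule 5. The named genes held little: over the 20 libraries RN7SL1 had 3330 estimated reads and RN7SL2 had 82686, against 6908130 on URS000037B6F9. RN7SL1 had reads in HD exosome 5 only.

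The members with this profile therefore had opposite calls. URS00004741F9 had no read in any of the 5 control exosome libraries and none in HD exosome 1. It took 2.10%, 1.07%, 5.17% and 0.2498% of reads in HD exosomes 2 to 5. In control granules it took 0.737%, 1.46%, 0.171%, 0.441% and 0.0430%, and in HD granules 0.391%, 0.306%, 0.732%, 0.178% and 0.0628%. Against a floor of 3 counts over the group, it was at least 127625-fold higher in control granules than in control exosomes (edgeR adjusted p = 0.0012). Control granule 2 held most of those reads, and without it the limit was 70305-fold. This limit and the fold limits below allow for counting error only. They do not allow for estimated reads that entries of like sequence can exchange. An entry at or near 0 in 1 group could pass the filter on low counts only by the other group. Its adjusted p, here and below, is therefore a description and no independent support. In HD cells granules and exosomes overlapped and the call did not pass (adjusted p = 0.334).

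URS0000354645 was at 0 in 4 control exosome libraries with 0.904 RPM in the fifth, and at 525 to 6344 RPM in control granules (edgeR adjusted p = 0.000209). URS00001D4207 had no read in control exosomes and 223 to 2951 RPM in control granules, at least 25969-fold higher (edgeR adjusted p = 0.00113) and at least 14402-fold without control granule 2. In HD exosome 3 it took 3.80% of all reads, more than in any granule library. URS0000024D93 (304 nt) was lower in granules in both states, with 13.7 to 39.996 RPM in control exosomes and 0 to 1.33 in control granules (log2 fold change -5.40, SE 0.928, edgeR adjusted p = 0.00145). Of 9 members with the 7SL profile tested in control cells, 3 were higher and 4 were lower in granules, against 22.4% higher and 14.8% lower of all entries tested. Of 10 tested in HD cells, 0 were higher and 3 were lower, against 18.8% and 0.493% of all entries.

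**Figure D4:**
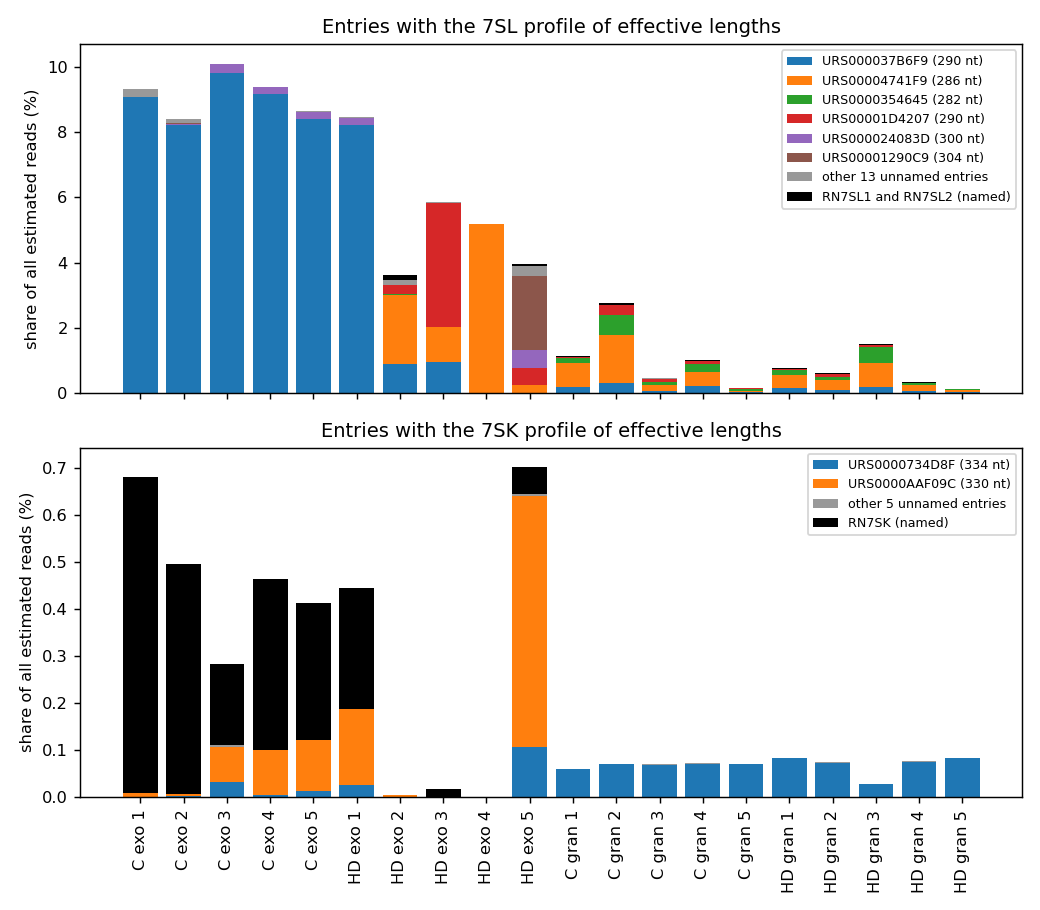
Shares of all estimated reads (vertical axes, percent) on entries with the 7SL profile (upper panel) and the 7SK profile (lower panel) in each library (horizontal axis, labels as above), stacked by entry with the named genes in black. In the upper panel URS000037B6F9 fills most of the bar in the 5 control exosome libraries and HD exo 1 and other entries fill it elsewhere; in the lower panel RN7SK fills most of the control exosome bars and URS0000734D8F those of granules.

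The 7 members with the 7SK profile together with the named 7SK entries took 0.680%, 0.496%, 0.286%, 0.466% and 0.412% of control exosome reads. HD exosomes 1 to 5 gave 0.444%, 0.00317%, 0.0167%, 0% and 0.701%. Control granules lay between 0.0595% and 0.0713% and HD granules between 0.0282% and 0.0838%, with HD granule 3 the lowest. The reads lay on different entries in the 2 preparations. The named gene RN7SK held 0.398% ± 0.191 (SD, n = 5) of control exosome reads and was listed at 0 in all 10 granule libraries. URS0000734D8F (334 nt) held 97.4% to 99.8% of the profile's member reads in control granules, where it stood at 592 to 706 RPM, against 0 to 315 in control exosomes. Its log2 fold change in control cells was 2.27 (SE 1.23) and did not pass (edgeR adjusted p = 0.177). Of 3 members with this profile tested in control cells, 0 were higher and 1 was lower in granules, against the same 22.4% and 14.8% of all entries, and so few say nothing about the profile.

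Other members were seen in exosomes and hardly at all in granules. URS00019AB68C (286 nt) took 2.19%, 0.657%, 0.0867%, 0.212% and 0.0456% of control exosome reads and 0.0472%, 0.00384%, 0.00995%, 0.314% and 0.000855% of HD exosome reads. It had no read in 9 granule libraries and 5 in control granule 2. It was lower in granules of control cells (edgeR adjusted p = 0.000141) and, at least 10819.7-fold against the floor of 3 counts, of HD cells (adjusted p = 0.00445). That limit rests on HD exosome 1: it was 2087-fold without it, and 17710-fold without HD exosome 2. URS00008C1686 (312 nt) stood at 109 to 3135 RPM in control exosomes and had no read in control granules, at least 44243-fold lower (edgeR adjusted p = 0.000915) and at least 24549-fold without control exosome 5. In HD exosome 2 it took 1.95% of reads, and without that library its HD call did not pass (log2 fold change -5.20, adjusted p = 0.0868, against -9.68, SE 2.93, adjusted p = 0.0365 with it). Nor did it pass without any 1 of HD granules 1, 2, 4 or 5 (adjusted p from 0.091 to 0.124), with no count filter (adjusted p = 0.0925) or with the replicate block (adjusted p = 0.0509). URS000010CC88 (259 nt) stood at 200 to 350 RPM in control exosomes and had no read in control granules, at least 12348-fold lower (edgeR adjusted p = 5.99e-06). As above, adjusted p-values of entries at or near 0 in 1 group are a description only.

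Smaller exosome entries kept a low level in granules. URS0001A004DB (294 nt) stood at 10.3 to 15.7 RPM in control exosomes and 2.28 to 3.11 in control granules (log2 fold change -2.80, SE 0.300, edgeR adjusted p = 9.83e-05), and in HD cells it did not pass (adjusted p = 0.0866). URS00008B8AC8 (306 nt) stood at 31.4, 41.8, 218, 0 and 191 RPM in HD exosomes and at 0 to 0.805 in HD granules (log2 fold change -8.87, SE 1.503, edgeR adjusted p = 0.00445). URS000222A6D5 (307 nt) was lower in granules of both states, by log2 fold changes of -3.64 (SE 0.593) in control cells and -4.27 (SE 0.894) in HD cells. With no count filter its HD call did not pass (adjusted p = 0.0556), and neither did that of URS0000024D93 (adjusted p = 0.0507).

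The granule entries of middle level included a pair of equal reads. URS000075BDDC and URS0001BF9DCF (both 348 nt) each stood at 244, 157, 390, 285 and 269 RPM in control granules and 1.77 to 3.52 in control exosomes. HD granules held 254, 400, 15.5, 603 and 346 of each. Their log2 fold change of granules over exosomes was 6.25 (SE 0.285, edgeR adjusted p = 1.18e-06) in control cells and 7.04 (SE 1.00, adjusted p = 0.00445) in HD cells. URS00023455AC (271 nt) stood at 378 to 1040 RPM in control granules and 4.82 to 8.69 in control exosomes. URS0001BCEE5E (298 nt) stood at 71.6 to 177 and 1.96 to 3.26, and URS0002349B77 (323 nt) at 15.5 to 34.1 and 0.222 to 0.419. All 3 were called higher in granules in both states, with log2 fold changes from 4.94 to 7.11. URS0001BCEE5E is 1 entry of a pair of near-equal reads with URS0002346CD6.

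Some of the most read members did not separate the preparations, or were called higher or lower only in some settings. URS00023462A7 (262 nt) stood at 3607 to 7131 RPM in control exosomes and at 3290 to 7088 in control granules 2 to 5, and had no read in control granule 1 (log2 fold change -0.41, SE 1.35, edgeR adjusted p = 0.837). URS00019C843B (328 nt) ranged from 527 to 21981 RPM in control granules, against 535 to 796 in control exosomes. Its call in control cells (log2 fold change 2.61, SE 0.893, adjusted p = 0.0431) did not pass without control granule 1 (1.45, adjusted p = 0.131) or without control granule 2 (2.51, adjusted p = 0.0742). Nor did it pass with any 1 of the control exosome libraries left out (adjusted p from 0.0766 to 0.0881) or with no count filter (adjusted p = 0.148). URS000071B825 (335 nt) was lower in control granules (log2 fold change -2.34, SE 0.725, adjusted p = 0.0287) and did not pass without any 1 of control granules 1, 3, 4 or 5 (adjusted p from 0.0599 to 0.0745). URS0000D58931 (314 nt) stood at 209 to 928 RPM in control granules and 0 to 25.1 in control exosomes (log2 fold change 5.63, SE 1.42, adjusted p = 0.0113). Its control groups did not overlap, and in HD cells the call did not pass (adjusted p = 0.088).

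Counts over the whole list set these entries in context. In control cells 291 of the 696 members passed the filter on low counts, 108 were called higher in granules and 46 higher in exosomes at an edgeR adjusted p under 0.05. Of all 58646 entries tested, 22.4% were called higher in granules and 14.8% lower. The median log2 fold change was 1.10 over the members tested and 0.42 over all entries tested. In the neighbouring windows, 58 of 137 entries of 150 to under 250 nt and 107 of 304 entries of over 350 to 450 nt were higher in granules, and 14 and 38 were lower. Members that drew reads in 1 group only could pass the filter only by that group, so these counts are a description.

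In HD cells 251 members were tested, with no pairing by replicate number in the main fit. Of these, 64 were higher and 14 lower in granules, against 18.8% higher and 0.493% lower among all 55128 entries tested. The median log2 fold change was 1.47 over members and 1.15 over all entries. Same-numbered HD exosome and granule libraries deviated together, and with the replicate number as a block 49 were higher and 8 lower, against 12.3% and 0.31% of all entries. Without HD exosomes 2 and 4 and HD granule 3, 556 members were tested, with 229 higher and 19 lower, against 18.7% and 2.2% of all 86539 entries tested. In that setting the members' median log2 fold change was 2.85, against 1.18 over all entries. The count of higher members depended on single libraries: it was 115 without HD granule 3, 35 without any 1 of the other HD granules, and 178, 150, 123, 135 and 126 without HD exosomes 1 to 5. Over all entries tested, 18.8% were higher without HD granule 3, 8.21% to 8.71% without any 1 of the other HD granules, and 15.04% to 28.4% with each HD exosome left out. The number of members tested moved too, to 304, to 211 to 220 and to 458 to 483 in the same order.

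The control and HD comparisons used separate libraries, and 49 members were called higher in granules in both states, 45.4% of the control calls and 76.6% of the HD calls. Over all entries tested the same shares were 42.5% and 53.96%. Another 10 members were higher in exosomes in both, 21.7% and 71.4% of the calls, against 2.45% and 77.9% over all entries. No member and 6 of all entries were called in opposite directions. The differences between members and all entries were not tested.

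**Figure D5:**
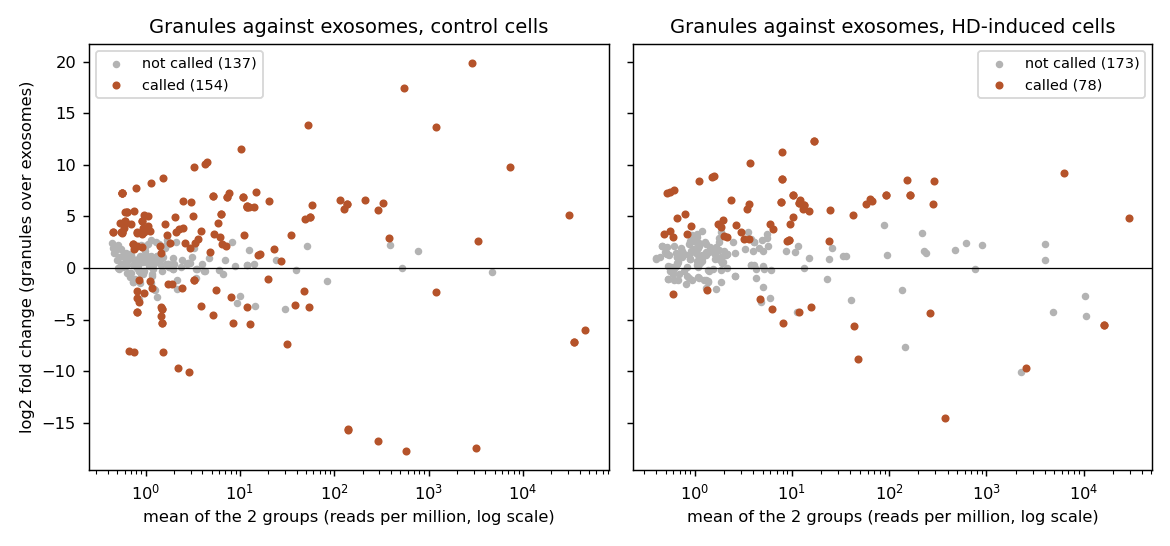
Log2 fold change of granules over exosomes (vertical axis, edgeR) against the mean level of the 2 groups (horizontal axis, RPM, log scale) for the members tested in control cells (left) and HD cells (right), with called members in red-brown. In control cells 154 of 291 were called and in HD cells 78 of 251; values beyond about 10 in size belong to members with few or no reads in 1 group and are no measure of size.

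Between HD and control cells no member was called. In exosomes 136 members were tested with 0 higher and 0 lower by edgeR, as in 0% of all 30394 entries tested. At an unadjusted p under 0.05, 5 members were higher and 6 lower, against 0.513% and 1.71% of all entries. DESeq2 called 0 members higher and 1 lower, against 0.0197% and 0.26% of all entries. That entry was URS00019AB68C, chosen here after its values were seen, whose control level rests on control exosome 1 (2.19% of reads, against 0.0456% to 0.657% in the other 4). URS000037B6F9 had a log2 fold change of -1.75 (SE 2.16), and its HD exosome libraries ran from 0 to 82159 RPM. Without HD exosome 1, 1 member was higher and 3 were lower by edgeR, against 0.0182% and 4.12% of all entries. The higher member was URS00004741F9 and the lower were URS0000EB9686, URS00023485DA and URS00026571EF, named here after their values were seen.

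In granules 568 members were tested with 0 higher and 0 lower by edgeR, as in 0% of all 94099 entries tested. At an unadjusted p under 0.05, 6 members were higher and 2 lower, against 0.717% and 0.575% of all entries. DESeq2 called 0 higher and 1 lower, against 0.0383% and 0.0138% of all entries. The 1 member was URS00008BCA91 (266 nt), named after its values were seen, whose edgeR adjusted p was 0.214. Without HD granule 3 the unadjusted counts were 98 higher and 6 lower of 592 members tested, against 4.86% higher and 2.08% lower of all 99125 entries tested, with 0 calls in either direction. The granule entry URS00019DAA22 had a log2 fold change of -0.17 (SE 0.428) and URS0001A04CEF one of -0.21 (SE 0.791), both smaller than their errors, and without HD granule 3 these were 0.06 and 0.11.

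The difference between the HD effect in granules and in exosomes was tested in 456 members over all 20 libraries, with 0 higher and 1 lower by edgeR, against 0.0913% and 0.0183% of all 82177 entries tested. The 1 member was URS00004741F9, absent from control exosomes, present in HD exosomes 2 to 5 and present in both granule groups (adjusted p = 0.0364). Its fitted difference of -22.87 on the log2 scale rests on the group at 0 and is no measure of size. The call did not pass when any 1 of the control exosomes, control granules or HD granules was left out, with adjusted p from 0.0516 to 0.103, or without HD exosomes 2 and 4 and HD granule 3 (adjusted p = 0.0995).

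The mRNAs of the proteins that bind RNAs of this size were tested per gene as the partners of these RNAs. Of 6 signal recognition particle genes in control cells, SRP19 was higher in granules (35.5 CPM ± 4.27 in exosomes and 88.9 ± 12.1 in granules, SD, n = 5, edgeR adjusted p = 1.10e-05) and SRP68 was lower (189 ± 21.7 and 66.4 ± 11.03, adjusted p = 7.97e-07). Among all 14777 genes tested, 30% were higher and 32.5% lower. Of 7 genes of the 7SK particle and P-TEFb, CCNT2 (a cyclin T) and LARP7 (which binds the end of 7SK) were higher, and CDK9, MEPCE (the 7SK capping enzyme), HEXIM1 and HEXIM2 were lower. Of 10 genes of RNase P and RNase MRP, 2 were higher and 4 lower. In HD cells SRP19 and CCNT2 were higher and POP5 and POP7 lower, against 11.9% higher and 5.77% lower of all 14431 genes. Between HD and control cells 0 of these genes were called in either preparation.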

How the data were processed

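Total RNA libraries of 5 replicates in each of 4 groups were taken from the labels' titles. Per the labels' protocols, a mirVana kit gave the RNA, and stranded libraries were sequenced in pairs of 100 bases. Per the submitters' processing notes, the authors used Trimmomatic, cutadapt, FastQC and Salmon with build GRCh38.p14. The labels and headers do not state tool versions or the annotation release. The deposited files hold, per entry, an expected count (the estimated reads, with fractions), a TPM value, a length and an effective length. The depth was 1074 reads in HD exosome 4 and 1.98 to 38.4 M (M, 1000000 estimated reads) in the other 19 libraries, and a low depth widens the error of every level.

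The members and gene lists were chosen with earlier results of these data known, and the profile rule (a root mean square difference of at most 0.06 over at least 17 libraries) was chosen after the data were seen. Expected counts were rounded per entry. All entries kept by filterByExpr were fitted together with TMM scaling and edgeR 4.0.16 (R 4.3.3, robust quasi-likelihood test). The p-values were adjusted over all entries tested (Benjamini-Hochberg), and a call needed an adjusted p under 0.05. The fit was tested on simulated data of the control granule and control exosome design only, with the same replicate variability for every entry. That test does not cover the fits with HD libraries. The protein partners were fitted on counts summed per gene. TPM was used for markers and as another unit for the shares. Members named are the 15 with the most reads, the 5 called members per comparison and direction with the smallest adjusted p, no overlap of groups (judged without HD exosome 4) and a mean of at least 5 RPM, the called members of the interaction, those at the threshold, and those of equal length to a named RNA. Entries of chosen profile are also named.

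Same replicate numbers were judged to be pairs where every pair of libraries deviated together from the group means by a correlation over 0.1. That held for HD exosomes and granules (0.131 to 0.141 in 5 pairs) and in no other comparison. The main HD calls still come from the fit without pairs, and the replicate block was an alternative. The labels do not say what a number shares. Nothing in the labels says that replicates came from separate cultures beyond the words biological replicate. Alternatives were RLE size factors, TMM from named transcripts, no count filter, DESeq2 1.42.0, the replicate block and leaving out each library. A fit without HD exosomes 2 and 4 and HD granule 3 was added after seeing the data.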

Additional observations from a re-analysis of the deposited data

Results flagged for a closer look

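In each group of 5 libraries, the highest or lowest library was compared with the rest for the members' share and the 15 most read members. Of 64 such comparisons 21 had a library far from the others. This count cannot be set against a chance rate. Where the other libraries of a group are at 0, any reads set a library apart. The comparisons are also not independent, since URS0001BEE16D and URS00008B8C2B had near-equal reads and both entered. HD granule 3 was far below its group in the share of reads on all members (3.54%), in URS00019DAA22 (1.40%), in URS0001A04CEF (0.0148%) and in URS0000734D8F (0.0282%), and far above it in URS0000354645 (0.490%). As summed TPM, its share on all members was 27.9%, within the 25.1% to 33.7% of the other HD granules.

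In HD exosomes each of the 5 libraries stood apart in at least 1 entry. URS000037B6F9 was far above the rest in HD exosome 1 (8.22%), URS00008C1686 (1.95%) and URS0000354645 (0.0398%) in HD exosome 2, and URS00001D4207 (3.80%) in HD exosome 3. URS00019AB68C was far above the rest in HD exosome 4 (0.314%), where depth was 1074 reads, and URS0001A04CEF (0.00767%) and URS0000734D8F (0.107%) in HD exosome 5.

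In control exosomes, URS00019AB68C (2.19%) and URS000071B825 (0.624%) were far above the rest in library 1, URS00019DAA22 (0.488%) and URS0001A04CEF (0.00195%) in library 3, and URS0000354645 (9.04e-05%) in library 5. In control granules, URS00019C843B was far above the rest in library 1 (2.20%), where URS0000734D8F was far below (0.0592%). URS00001D4207 (0.295%) and URS00019AB68C (1.45e-05%) were far above the rest in control granule library 2. URS0000354645 in both exosome groups and URS00019AB68C in control granules were at 0 in every other library of the group. In control exosome 5 and control granule 2 these flags rest on 9.338 and 5.008 estimated reads.

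In the main fit URS00004741F9 was called different between preparations in its HD effect, by -22.87 on the log2 scale (granules minus exosomes, edgeR adjusted p = 0.0364). Its 5 control exosome libraries were at 0, so that value is no measure of size. The call was lost in 18 alternative settings and kept in 8. It did not pass with no count filter (adjusted p = 0.251) or with the replicate block (adjusted p = 0.199). Leaving out any control exosome, control granule or HD granule library also lost it (adjusted p from 0.0516 to 0.103). So did leaving out HD exosome 2, HD exosome 4 and HD granule 3 together (adjusted p = 0.0995).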

How the results depend on the processing

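The limits are as follows. Depth limits HD exosomes most: HD exosome 4 held 1074 reads, and levels in it are counted in a few reads. Named and unnamed entries of like sequence can exchange estimated reads, so a call on 1 entry is a call on that entry of the files. In control cells the count of members higher in granules stayed within 1.5 times of 108 in every alternative run (98 to 136 with each library left out) and that of lower members within 1.5 times of 46 (42 to 49). With TMM from named transcripts it was 117 higher and 39 lower, while the median log2 fold change moved from 0.42 to 0.69 over all entries and from 1.10 to 1.38 over members. Of 19 named members called there, 3 lost the call in at least 1 alternative. In HD cells the number higher was 26 with no count filter, 229 without the 3 doubted libraries and 35 to 178 with each library left out, against 64. The number lower was 9 with no count filter, 8 with the replicate block and 7 to 17 with each library left out, against 14. Of 13 named members called there, 6 lost the call in at least 1 alternative. The cause was not tested. No named value in these 2 comparisons reversed its direction.

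Between HD and control exosomes, no count filter gave 2 higher and 2 lower members, DESeq2 gave 1 lower, and leaving out each library gave 0 to 1 higher and 0 to 3 lower. Between HD and control granules, DESeq2 gave 1 lower. There the 5 most read members, all uncalled with values near 0, changed sign in some settings. With each library left out the log2 fold change ran from -0.26 to 0.13 for URS00019DAA22, -1.06 to 0.0353 for URS000037B6F9, -0.24 to 0.59 for URS0001BEE16D, -0.24 to 0.59 for URS00008B8C2B and -0.33 to 0.11 for URS0001A04CEF. Without the 3 doubted libraries, of which only HD granule 3 enters, it was 0.0614 for URS00019DAA22, -0.18 for URS0001BEE16D, -0.18 for URS00008B8C2B and 0.11 for URS0001A04CEF. For the difference of HD effects, DESeq2 gave 3 higher and 7 lower, and leaving out each library gave 0 to 5 higher and 0 to 8 lower. The lower count was 0 with no count filter, with the replicate block and without the 3 doubted libraries.

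As a share of reads on unnamed entries only, members took 60.8% in control exosomes, 37.7% in HD exosomes, 29.2% in control granules and 29.97% in HD granules. As summed TPM, which divides reads by effective length, they took 60.4%, 39.6%, 33.6% and 28.7% of the total. With at least 1000 reads, no threshold on reads or a window of 260 to 340 nt, the mean shares moved by less than 1 SD.

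In control cells the replicate block gave 84 higher and 31 lower members, and it gave 0 calls between HD and control in exosomes and in granules. Same-numbered control exosomes and granules correlated from -0.117 to 0.162 in their deviations, and 1 of 5 pairs correlated best with its own number. With the block, URS00019C843B (adjusted p = 0.253) and URS000071B825 (adjusted p = 0.0542) did not pass. With no count filter, URS00019C843B (edgeR adjusted p = 0.148), URS000071B825 (adjusted p = 0.151) and URS0000D58931 (adjusted p = 0.104) did not pass.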
